A study of Canis lupus familiaris with 10 samples.

Results

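The transcripts described here encode the machinery of the transcription factor NF-kB: its DNA-binding subunits, the inhibitor that holds them in the cytoplasm, and the kinase that releases them. The genes NFKB1, NFKB2, REL, RELA, RELB, NFKBIA, NFKBIE, IKBKB and IKBKG were looked up by symbol in a panel of 800 genes, and 8 of these 9 were found. They comprised 5 subunits, 1 inhibitor (NFKBIA) and 2 components of the IKK kinase complex (IKBKB and IKBKG), while NFKBIE was not analysed here. All 8 were measured in 10 tumors and compared between the early and the late stage of canine cutaneous histiocytoma (CCH). This skin tumor of mostly young dogs derives from Langerhans cells, is benign, and as a rule disappears without treatment.

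NF-kB is a dimer drawn from a family of related subunits. In resting cells the protein made from NFKBIA masks the dimer, and signals from cytokine, Toll-like and antigen receptors activate the IKK complex, which marks this inhibitor for destruction and sets the dimer free. RELA, REL and the processed product of NFKB1 serve this canonical route, whereas RELB and the processed product of NFKB2 serve a slower, non-canonical one that acts downstream of receptors such as CD40 and LTBR. Several genes of the system, NFKBIA, NFKB2, RELB and TNFAIP3 among them, are themselves known targets of NF-kB.

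The early group held 5 tumors of Cockerell and Slauson group 1, and the late group held 5 tumors of group 3, which the labels call enriched in lymphocytes. Every tumor came from a different pet dog, and the dogs were untreated as far as the labels say and belonged to several breeds. The early group consisted of 3 males, 1 female and 1 dog of unstated sex, aged 0.5 to 5 years where an age was given (4 of 5), and the late group of 4 males and 1 female aged 1.5 to 9 years. Total RNA came from formalin-fixed, paraffin-embedded (FFPE) tissue from which tissue next to the tumor had been trimmed, with the cells infiltrating the tumor included, and was counted with color-coded probes and no amplification. Values are normalized counts, which the authors scaled to spiked-in controls and then to housekeeping genes.

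The stages differed in more than histology. All early tumors were run on 1 cartridge of the instrument and all late tumors on another, and no extraction batch held both stages, so stage and batch cannot be told apart in any comparison below. Counts recovered per tumor summed to between 484696 and 823763 in the early group and between 945399 and 1253083 in the late group. DV200, the percentage of RNA fragments longer than 200 nucleotides, ran from 64.5% to 71.2% in the early group and from 71.2% to 75.8% in the late group by the sample labels, and for late 5 the study's supplement gives another value. The ratio of the 2 most concentrated positive control probes, which contain no dog RNA, was 2.09 to 2.17 in the early group and 2.72 to 2.84 in the late group. With these depths counting error was small: the 8 genes lay above background in all 10 tumors, their lowest normalized count was 94.2 against a highest background of 38.2, and the counting SD of a single value was at most 11.2%.

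Some cell type markers also moved with stage. The summed level of 14 T cell markers ranged from 739 to 13539 (median 4190) in early and from 20154 to 35146 (median 27301) in late tumors, and all 13 T cell markers tested were higher in late CCH past the Benjamini-Hochberg (BH) threshold of 0.05. Of 10 B cell markers 6 passed it, also higher in late CCH, with CD79B above background in 0 of 5 early and 5 of 5 late tumors. Of 10 macrophage markers 4 passed it, higher in late CCH, and the summed level was 3878 to 11705 (median 6684) in early and 8923 to 16043 (median 10963) in late tumors. Of 8 Langerhans and dendritic cell markers 2 were higher in early and 3 in late CCH, with summed levels of 2315 to 6276 and 2732 to 6712. For comparison, 27.3% of all tested genes were higher in late and 8.41% in early CCH past the same threshold. CD207 (langerin), which defines Langerhans cells, was above background in 1 early and 1 late tumor, and CD1A6 in 4 early and 5 late tumors. The part that these cell types play in the differences below was not tested, and in whole tissue a change in the number of cells of a type and a change in the RNA of each cell cannot be told apart.

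NFKBIA, the inhibitor, was the member with the largest stage difference. In early CCH its normalized counts were 1025, 1801, 1404, 1634 and 1271 in tumors 1 to 5, and in late CCH they were 2954, 2968, 4092, 3497 and 3926. The groups did not overlap, and the lowest late tumor stood 1.64-fold above the highest early one. Early CCH averaged 1427 ± 304 and late CCH 3488 ± 527 (mean ± SD, n = 5 tumors each). The log2 fold change, early over late, was −1.30 with a standard error (SE) of 0.18, so that NFKBIA was 2.47-fold higher in late CCH (95% confidence interval 1.87 to 3.25). In limma's test the Benjamini-Yekutieli (BY) adjusted p was 0.0102 and the BH adjusted p 0.00141, which placed NFKBIA at rank 12 of 761 tested genes. The exact two-sided permutation p was 0.00794, the smallest that 5 samples against 5 can give. NFKBIA was called in all 10 fits that left out 1 tumor, with log2 fold changes between −1.39 and −1.19.

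By both NFKBIA and T cell markers early 1 and early 5 were the lowest early tumors, while early 2, early 3 and early 4 stood in another order. Early 3 and early 4 had the highest summed T cell levels of their stage (13539 and 10729), with NFKBIA at 1404 and 1634, while early 2, with a T cell sum of 4190, had the highest early NFKBIA value of 1801. Early 1 had the lowest T cell sum (739) and the lowest NFKBIA value (1025), and early 5 had the next lowest of both (1781 and 1271). Among late tumors the lowest T cell sum (20154) and the highest NFKBIA value (4092) both belonged to late 3. The part of T cells in the NFKBIA difference was not tested. With DV200 as a covariate the log2 fold change was −1.25 (BH adjusted p = 0.0389, BY adjusted p = 0.281), and among male dogs alone it was −1.31 (BH adjusted p = 0.0217, BY adjusted p = 0.156), so the BY call was lost in both fits.

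**Figure D1:**
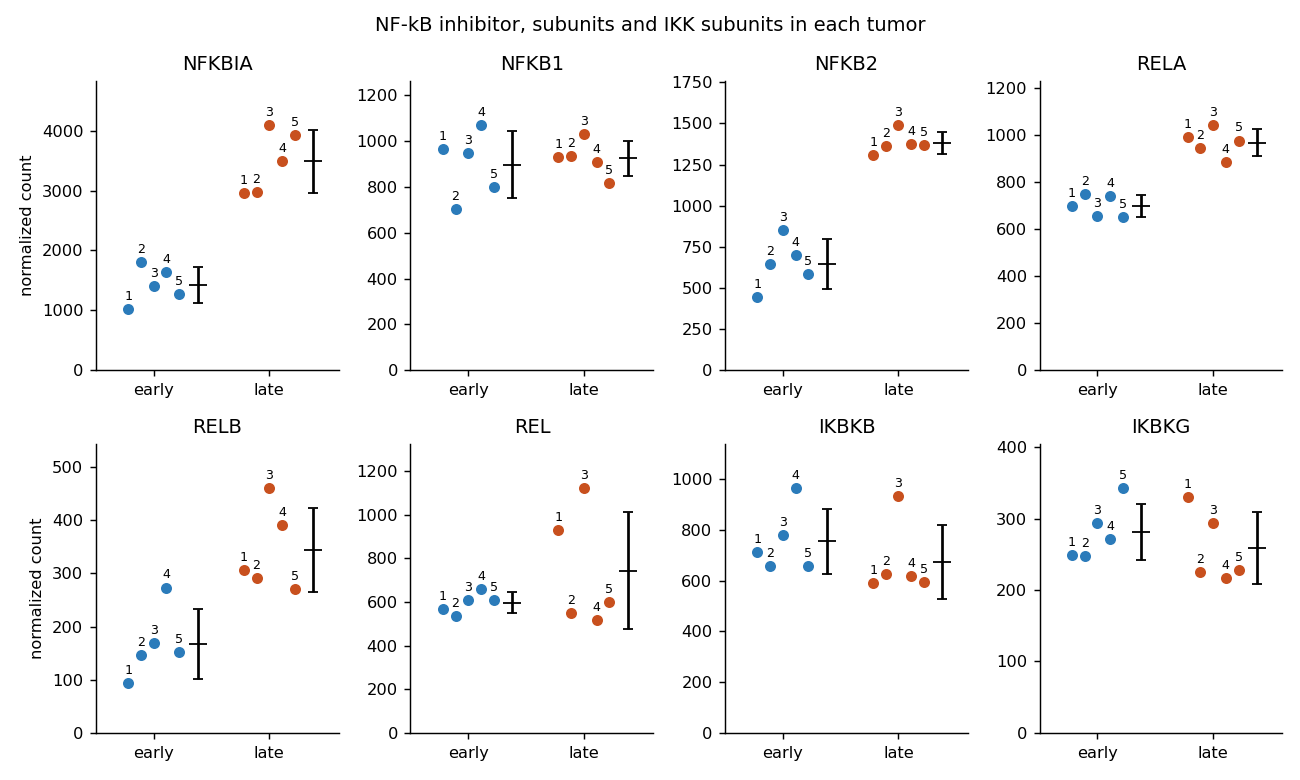
Normalized counts (linear axes from 0) of the inhibitor NFKBIA, the 5 subunits and the 2 IKK components in each tumor, with early tumors in blue, late tumors in orange, the tumor number above each point, and the mean ± SD (n = 5) beside each group. NFKBIA, NFKB2 and RELA separated the stages completely, RELB did so except for early 4 and late 5, and the ranges of NFKB1, REL, IKBKB and IKBKG overlapped.

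Among the subunits, NFKB2, the precursor subunit of the non-canonical route, passed the BY and 2-fold thresholds. Its normalized counts were 444, 646, 850.0, 702 and 584 in early tumors 1 to 5 and 1310, 1364, 1490, 1373 and 1370 in late tumors 1 to 5. The late values lay close together, with a coefficient of variation of 4.77% against 23.2% in early CCH, and the groups did not overlap. The log2 fold change was −1.13 (SE 0.17), that is 2.19-fold higher in late CCH (95% confidence interval 1.68 to 2.85, BY adjusted p = 0.0120, means 645 ± 149 and 1381 ± 65.9, SD, n = 5 each). It was called in all 10 fits without 1 tumor. With DV200 as a covariate the log2 fold change was −0.92, and neither the BY nor the BH threshold was passed (BH adjusted p = 0.0693). The BY call was also lost among male dogs alone (BY adjusted p = 0.141) and with the replicate number as a block (0.0941).

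RELB, the usual dimer partner of the processed NFKB2 product, stood at 94.2, 146, 169, 273 and 152 in early tumors 1 to 5 and at 306, 292, 461, 391 and 270.0 in late tumors 1 to 5. Early 4 exceeded late 5 by a small margin and no other early tumor reached the late range. The log2 fold change of −1.09 (SE 0.28) was close in size to that of NFKB2 but less certain, with a BH adjusted p of 0.0136 and a BY adjusted p of 0.0981. Without early 4 it became −1.29 and passed the BY and 2-fold thresholds (BY adjusted p = 0.0401). The BH threshold was missed with DV200 as a covariate (BH adjusted p = 0.236) and among male dogs alone (0.0815).

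RELA, the main activating subunit of the canonical route, differed by less but very evenly. Its normalized counts were 698, 748, 654, 738 and 649.9 in early tumors 1 to 5 and 989.7, 946, 1041, 883 and 975 in late tumors 1 to 5. The groups did not overlap, with means of 698 ± 45.8 and 967 ± 58.1 (SD, n = 5 each). The log2 fold change was −0.47 (SE 0.12), 1.39-fold higher in late CCH, with a BH adjusted p of 0.0117 and a BY adjusted p of 0.0843. The BH threshold was missed with DV200 as a covariate (BH adjusted p = 0.207), among male dogs alone (0.128) and with the replicate number as a block (0.0636). The SD of RELA within stages was 0.09 on the log2 scale against a median of 0.46 over the 761 tested genes, and 1 gene, LY9, had a smaller one.

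NFKB1, which encodes the partner subunit of RELA, overlapped between the stages. Early tumors 1 to 5 gave 967, 702, 945, 1069 and 799.6 normalized counts, and late tumors 1 to 5 gave 931, 933, 1031, 907 and 816. The late values lay within the early range, the log2 fold change was −0.05 (SE 0.15, BH adjusted p = 0.805), and the 95% confidence interval of the fold, late over early, ran from 0.827 to 1.30 on the deposited scale.

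REL, the subunit best known from lymphocytes, was uniform in early CCH and split in late CCH. It measured 566, 534, 611, 661 and 610.1 in early tumors 1 to 5. In late CCH it was 929 in late 1 and 1124 in late 3, but 549, 518 and 599 in late 2, late 4 and late 5, inside or just below the early range. The coefficient of variation was 8.09% in early and 36.1% in late CCH, and the log2 fold change of −0.25 (SE 0.23) did not pass the test (BH adjusted p = 0.414). It was −0.084 without late 3 and −0.15 without late 1, and reached −0.36 without late 4.

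The IKK components gave no stage difference that passed the test. IKBKB, the kinase subunit that phosphorylates the inhibitor, measured 711, 658, 780.2, 965 and 656 in early tumors 1 to 5 and 592, 626, 934, 619 and 595 in late tumors 1 to 5. Late 3 stood far from the other late tumors, which were all below the early group. The log2 fold change was 0.17 (SE 0.18, BH adjusted p = 0.477), 0.30 without late 3 and 0.078 without early 4, and the fold, late over early, was 0.888 with a 95% confidence interval of 0.675 to 1.17. IKBKG, the regulatory subunit NEMO, measured 249, 248, 294, 272 and 343 in early tumors 1 to 5 and 329.9, 224, 294, 216 and 228 in late tumors 1 to 5. Its log2 fold change was 0.13 (SE 0.18, BH adjusted p = 0.609), with a 95% confidence interval of the fold of 0.691 to 1.21.

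Counted together, 2 of 8 members (NFKBIA and NFKB2) passed the BY and 2-fold thresholds, both higher in late CCH. Of all 761 tested genes 11.2% were called, 9.2% higher in late and 1.97% higher in early CCH. At the BH threshold 4 of 8 members (with RELA and RELB) were higher in late CCH against 27.3% of all tested genes, and 0 were higher in early CCH against 8.41%. The stages did not overlap for 3 of 8 members, all higher in late CCH, against 19.2% of all tested genes, and 0 were higher in early CCH without overlap, against 5.39%. The median log2 fold change of the 8 was −0.36 and that of all tested genes −0.18. Within the late group, tumor 3 had the highest value of 7 of the 8 members, IKBKG being the exception. How often tumor 3 was highest over all tested genes was not counted. Tumor 3 also had the highest summed B cell level (11354, against 2268 to 4594 in the other late tumors) and the highest DV200 (75.8%).

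**Figure D2:**
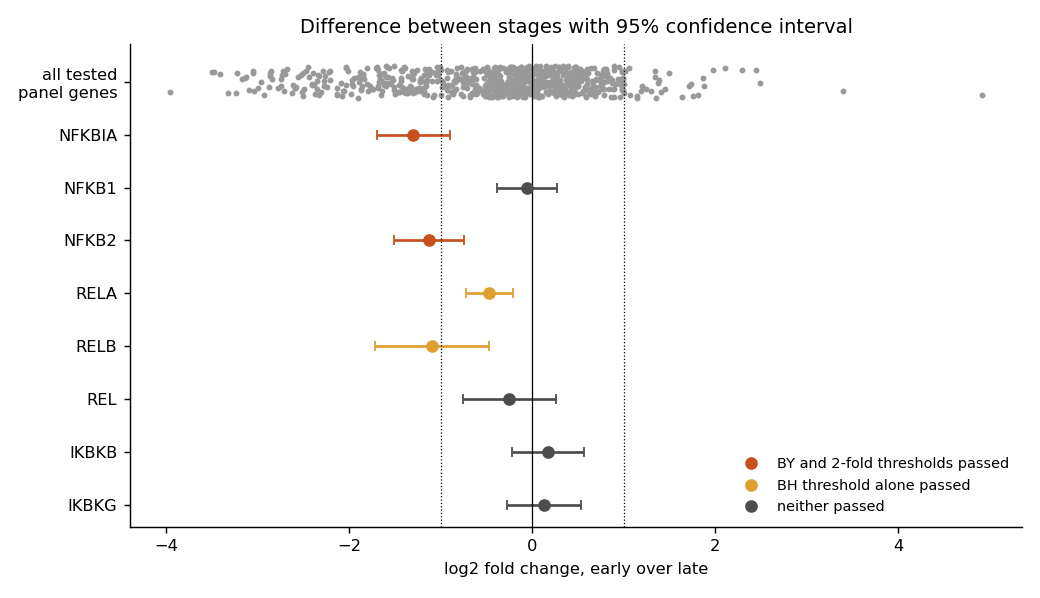
Log2 fold change, early over late, of each member with its 95% confidence interval from limma, and above them every tested panel gene as a grey point without interval. Dotted lines mark a 2-fold change, values below 0 mean higher in late CCH, and the intervals of NFKBIA, NFKB2, RELA and RELB lie wholly below 0 while the other 4 span it.

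The choice of scale moved all members together. On the deposited scale the median of all tested genes was −0.18, and it became 0.21 when each tumor was brought to the same geometric mean over the panel, 0.04 with the median of ratios, 0.16 with the 75th percentile and 0.21 with quantiles. The panel genes called higher in late and in early CCH changed from 70 and 15 on the deposited scale to 34 and 42, 48 and 27, 35 and 38, and 34 and 47 in the same order. NFKBIA stayed lower in early CCH under the 4 scalings (−0.91, −1.09, −0.96 and −0.95, BY adjusted p 0.0192 to 0.0411) but fell short of the 2-fold limit in all but the median of ratios. NFKB2 (−0.74, −0.91, −0.79 and −0.75) kept a BY adjusted p of at most 0.0368 and missed the 2-fold limit in all 4. RELA lost the BH threshold in all 4 scalings (−0.08, −0.25, −0.13 and −0.14, BH adjusted p 0.147 to 0.696), and RELB lost it under quantile scaling (−0.44, BH adjusted p = 0.187).

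IKBKB passed the BH threshold, higher in early CCH, under geometric mean, 75th percentile and quantile scaling (log2 fold change 0.56, 0.51 and 0.58), and IKBKG did so under quantile scaling (0.73, BH adjusted p = 0.0171). NFKB1 and REL changed sign with scaling and passed no threshold under any. Relative to the median of all tested genes NFKBIA, NFKB2 and IKBKB hardly depended on scale. NFKBIA was −1.13 on the deposited scale and −1.16 to −1.12 under the others, NFKB2 was −0.95 and −0.95 to −0.94, and IKBKB was 0.35 and 0.35 to 0.38. RELB (−0.92) and IKBKG (0.31) moved under quantile scaling, to −0.65 and 0.53.

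**Figure D3:**
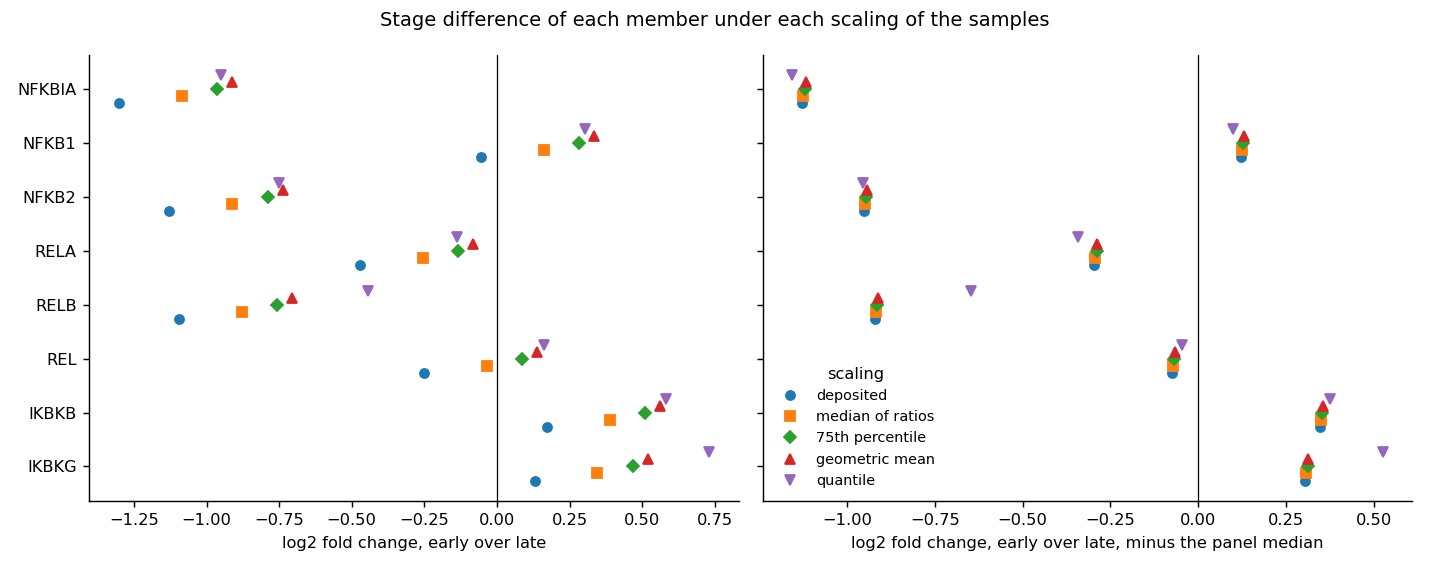
Log2 fold change, early over late, of each member under the deposited scale and 4 other scalings of the samples, as fitted (left) and after subtracting the median of all tested genes (right). On the left the 4 other scalings shift nearly every member upward by a like amount, and on the right the markers of a member fall close together, except for RELB and IKBKG under quantile scaling.

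A single scaling factor per tumor leaves ratios within it nearly unchanged, but quantile scaling moved some of them (RELB to RELA from −0.62 to −0.31, early minus late). Probes differ in efficiency, so the level of a ratio has no meaning of its own and the change between tumors is what is given. NFKBIA rose against NFKB1: the log2 ratio was 0.08, 1.36, 0.57, 0.61 and 0.67 in early tumors 1 to 5 and 1.66, 1.67, 1.99, 1.95 and 2.27 in late tumors 1 to 5. Every late tumor lay above every early one, and inhibitor transcript per NFKB1 transcript was 2.37-fold higher in the late stage. Of 14 ratios compared, this and 3 others did not overlap, namely NFKBIA to RELA (1.78-fold higher in late CCH), NFKBIA to IKBKB (2.78-fold) and NFKB2 to NFKB1 (2.10-fold). Each had an exact two-sided permutation p of 0.00794 (BH adjusted over the 14 ratios p = 0.0278, higher in 5 of 5 late tumors than in any early one). Another 3 ratios overlapped but passed the adjusted threshold: NFKBIA to REL and IKBKE to IKBKB, higher in late CCH (2.07-fold and 2.14-fold, adjusted exact permutation p = 0.0370 each), and TNFAIP3 to NFKBIA, lower in late CCH (0.829-fold, adjusted exact permutation p = 0.0476), and each of the 3 missed it in several fits without 1 tumor. For NFKBIA to NFKB1 the adjusted p was 0.0556 without late 2 or without late 4. Against all 760 other tested genes NFKBIA gave such a non-overlapping ratio, higher in late CCH, for 44.9%, and NFKB2 for 41.4%.

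Ratios among NFKBIA, NFKB2 and RELB overlapped between the stages, as did that of the IKK components. NFKBIA to NFKB2 had a mean log2 ratio of 1.15 ± 0.27 in early and 1.32 ± 0.17 in late CCH (SD, n = 5, exact permutation p = 0.302). RELB to NFKB2, the pair of the non-canonical route, had −2.0 ± 0.39 and −2.03 ± 0.27 (exact permutation p = 0.905). IKBKB to IKBKG had 1.42 ± 0.32 and 1.38 ± 0.32 (exact permutation p = 0.810). These p-values do not show that the ratios were equal, since a 5 against 5 comparison has little power for small shifts.

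**Figure D4:**
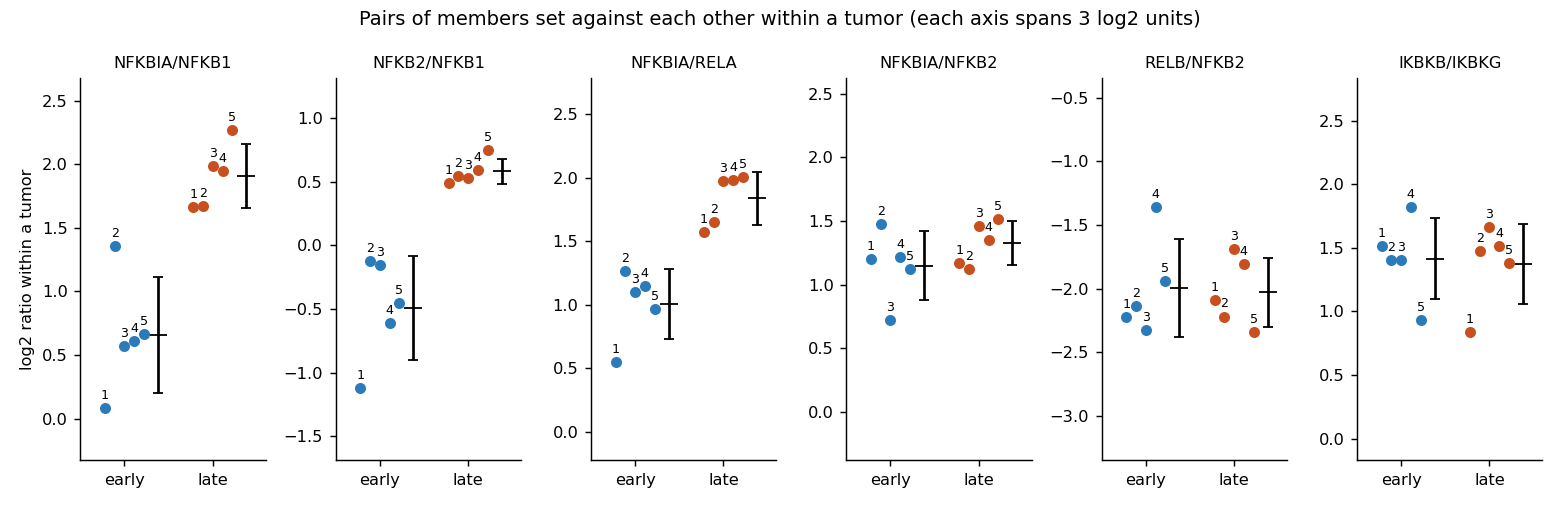
Log2 ratio of pairs of members within each tumor (early blue, late orange, tumor number above each point, mean ± SD beside each group, n = 5), on axes that each span 3 log2 units. NFKBIA to NFKB1, NFKB2 to NFKB1 and NFKBIA to RELA separate the stages, and NFKBIA to NFKB2, RELB to NFKB2 and IKBKB to IKBKG overlap.

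Genes outside the family were ranked by their Pearson correlation of log2 values with NFKBIA over the 10 tumors, which share the stage difference and the scaling. The 5 highest were TNFAIP3 (r = 0.97), which encodes the deubiquitinase A20 that shuts off NF-kB signaling, the adhesion molecule ICAM1 (0.97), the shared cytokine receptor chain IL2RG (0.95), the transcription factor IRF1 (0.94) and the T cell surface molecule CD6 (0.94). After each stage was centered on its own mean, which takes out the stage difference, r was 0.87 for TNFAIP3, 0.79 for ICAM1, 0.68 for IRF1, 0.54 for CD6 and 0.52 for IL2RG. The first of these, TNFAIP3, measured 1143, 1749, 1483, 1558 and 1088 in early tumors 1 to 5 and 2218, 2525, 3066, 2794 and 3748 in late tumors 1 to 5. It followed the order of NFKBIA in early CCH except that early 1 and early 5 changed places at the lower end, and it was 2.04-fold higher in late CCH.

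Within the family the same measure gave 0.95 for NFKBIA with NFKB2, 0.94 with RELA and 0.88 with RELB, and 0.62, 0.47 and 0.62 after centering. NFKBIA with NFKB1 gave 0.07, and −0.24 after centering. Outside this cluster, IKBKB with NFKB1 gave 0.63 and 0.75, and IKBKG with REL gave 0.60 and 0.79 after centering. These correlations describe 10 tumors with shared scaling and carry no test.

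The rest of the pathway was followed from receptor to target with lists that contain none of the 8 members. Of 11 receptors that signal to NF-kB, 1 was higher in early and 0 in late CCH past the BH threshold (8.41% and 27.3% of all tested genes). TNFRSF11A, the receptor RANK, measured 570.2, 500, 404, 344 and 495 in early and 254, 227, 267, 259 and 252 in late tumors 1 to 5, with a log2 fold change of 0.86 (SE 0.17, BH adjusted p = 0.00422). The groups did not overlap. TNFRSF11A passed the BH threshold under 22 of 24 alternatives, with a highest BH adjusted p of 0.136 in limma's test. Of the other receptors, CD40 (1427 ± 630 and 1445 ± 354) and LTBR (190.0 ± 42.8 and 148 ± 24, mean ± SD, n = 5) did not pass. The median of the list was 0.34, and 3 to 5 receptors were higher in early CCH past the BH threshold under the other scalings.

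Of the 14 adaptors and kinases tested, between receptor and IKK, 1 was higher in early CCH past the BH threshold (8.41% of all tested genes). The median of the list was 0.01, and changes toward late CCH in this list are not reported here. IRAK4, the first kinase of the Toll-like receptor complex, was higher in early CCH (log2 fold change 0.67, SE 0.15, BH adjusted p = 0.00771). MYD88 and TRAF6, central adaptors of the same route, did not pass (log2 fold change 0.17 and −0.02). Under the other scalings 3 to 8 genes of this list were higher in early CCH.

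Of 4 genes related to IKK, 1 passed the BH threshold, higher in late CCH (27.3% of all tested genes). IKBKE, an inducible kinase related to IKK, measured 763, 1357, 848, 862 and 885 in early and 2138, 1597, 1543, 1869 and 1673 in late tumors 1 to 5. No value of one stage fell in the range of the other, and the log2 fold change was −0.92 (SE 0.18, BH adjusted p = 0.00406), just short of 2-fold. CHUK, the other catalytic subunit of the IKK complex, TBK1 and TANK did not pass (log2 fold change 0.25, 0.35 and −0.19), but CHUK and TBK1 passed the BH threshold, higher in early CCH, under the 4 other scalings.

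Of the 6 negative regulators tested, 3 were higher in late CCH and 0 in early CCH past the BH threshold (27.3% and 8.41% of all tested genes), with a median of −1.26. SIGIRR, an inhibitory receptor that dampens interleukin-1 and Toll-like receptor signals, was 2.97-fold higher (164 ± 50.7 and 473 ± 62.2, BY adjusted p = 0.0102). TNFAIP3 had a log2 fold change of −1.03 (SE 0.19, BY adjusted p = 0.0238), at the 2-fold limit, and was not called without early 1, early 5, late 2, late 4 or late 5 (BY adjusted p 0.0516 to 0.0753). TRAF3, which restrains the non-canonical route, was 3.05-fold higher in late CCH (BH adjusted p = 0.0241). Early 1 measured 68.8 against 325 to 414 in the other early tumors, and without it the log2 fold change of −1.61 became −1.12 with a BY adjusted p of 0.0464, while without late 1 the BH threshold was missed (BH adjusted p = 0.0574). SOCS1, TOLLIP and CYLD did not pass (−1.5, −0.48 and 0.15). The list had 3 genes higher in late CCH past the BH threshold under every scaling tried.

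Of 28 known target genes tested, 11 were higher in late and 1 in early CCH past the BH threshold (27.3% and 8.41% of all tested genes), and 3 of the 11 (CCL4, IRF1 and ICAM1) passed the BY and 2-fold thresholds, against 9.2% of all tested genes. The median was −0.84. The chemokine CCL4 measured 80.4, 285, 751, 377 and 140.2 in early and 1446, 1643, 1595, 1613 and 2364 in late tumors 1 to 5, 6.89-fold higher in late CCH. No early tumor reached the late range. By summed T cell level, early 3 and early 4 were also the highest of their stage, while late 1 had the highest sum of the late stage (35146) and its lowest CCL4 value. The BY threshold was missed without early 5, late 1, late 2, late 4 or late 5 (BY adjusted p 0.0657 to 0.0762), and for IRF1 without late 1 (BY adjusted p = 0.0540). The chemokine CCL5 had the largest change of the list (log2 fold change −2.87, SE 0.98, BH adjusted p = 0.0437), but its groups overlapped, and it passed the BH threshold in 3 of the 10 fits without 1 tumor, those without early 1, early 3 or early 4. BCL2L1, which encodes the survival protein BCL-XL, went the other way (1406 ± 153 in early and 783 ± 192 in late CCH, BH adjusted p = 0.00676). TNF (−0.52), IL6 (0.44) and CXCL8 (−1.36) were among the 16 targets that did not pass. Some of the 16 were barely detected: IL12B was above background in 0 early and 2 late tumors, CSF2 in 2 and 2, and IL1B in 3 and 2. CCL4 and CCL5 are known products of activated T cells, and CD83 of this list also stands in the list of Langerhans and dendritic cell markers.

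The 6 immediate-early genes tested, which respond to handling of tissue as well as to signals, had a median of 0.01. EGR1 was higher in late CCH (log2 fold change −1.81, SE 0.43, BH adjusted p = 0.0105) and MYC in early CCH (1.00, SE 0.20, BH adjusted p = 0.00489), and the other 4, FOS and DUSP1 among them, did not pass.

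**Figure D5:**
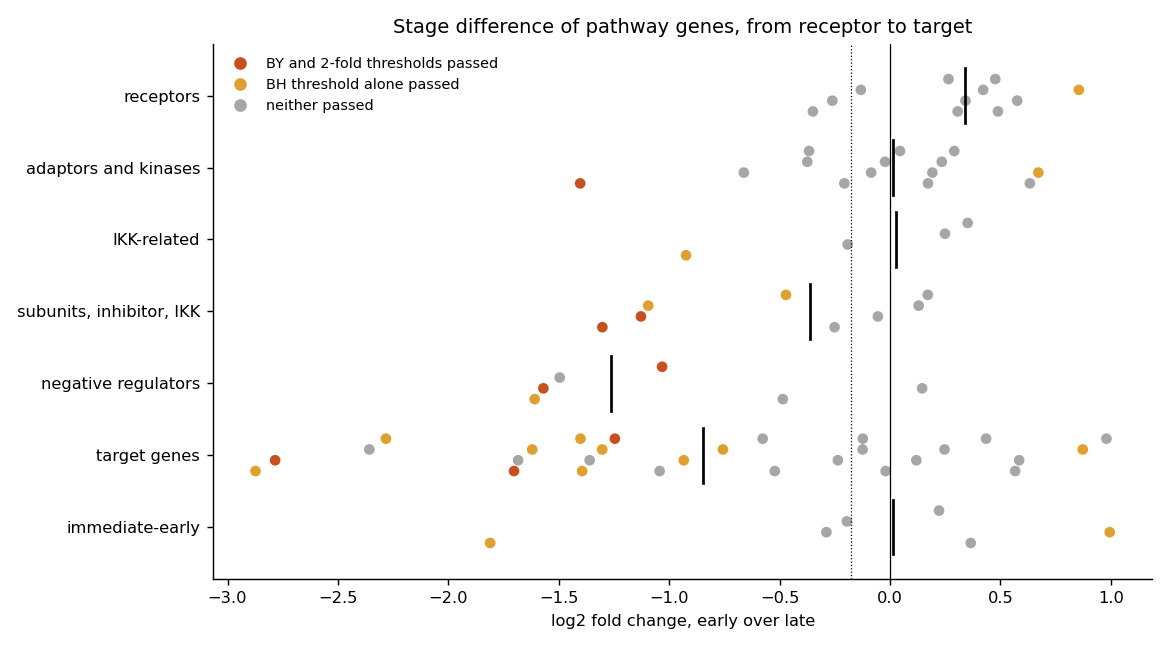
Log2 fold change, early over late, of every tested gene of 7 lists ordered from receptor to target, with the 8 members in the fourth row. Dots are colored by the threshold passed, the vertical bar of each row is the median of that list, the dotted line is the median of all tested genes (−0.18), and the medians of the negative regulators (−1.26) and targets (−0.84) lie to the left of the rest.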

How the data were processed

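RNA of 10 FFPE canine cutaneous histiocytomas (5 early, 5 late, stage and number from the sample titles) was hybridized by the authors to the nCounter Canine IO Panel. The deposited values are a normalized signal (normalized counts, linear scale), which the authors scaled in nSolver to positive controls and then to housekeeping genes. The 14 control probes (6 positive, 8 negative) were left out of tests. No background subtraction was stated. Each tumor's gene values were whole multiples, within 0.0051, of 1 step for at least 99.4% of genes; dividing by it gave recovered counts of 484696 to 1253083 per tumor. The control probes hold whole numbers outside that scale, so the columns were not treated as counts and no count test was run; the recovered counts serve depth, background and counting error only. Background was the mean plus 2 SD of the negative probes.

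Stages were compared with limma 3.58.1 in R 4.3.3 (lmFit, eBayes with intensity trend) on log2(normalized count + 1), with late CCH as baseline, no covariate, and the 761 genes with a mean of at least 20, all 8 members included. A negative log2 fold change means higher in late CCH, and low genes are understated on this scale. As in the study's design, a call needed a Benjamini-Yekutieli adjusted p of at most 0.05 and a 2-fold change; Benjamini-Hochberg adjusted p-values are given beside it, both over all tested genes. Single values and ratios within a tumor were tested by exact two-sided permutation, and the ratios were added after the data were seen. Replicates were separate dogs. Replicate numbers did not pair tumors. The fit was tested on simulated data.

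Alternatives covered pseudocount, filter, scaling, background floor, variance model, DV200, males alone, the replicate block and leaving out each tumor.

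Genes named were the 8 members, the 5 genes most correlated with NFKBIA, and from each list at most 2 per direction with the largest change past the BH threshold. CD40, LTBR, MYD88, TRAF6, CHUK, TBK1, TANK, SOCS1, TOLLIP, CYLD, TNF, IL6, CXCL8, IL12B, CSF2, IL1B, FOS, DUSP1, LY9 and single markers were named after their values were seen. Lists also covered neutrophil, keratinocyte, endothelial and fibroblast markers. Members and lists were chosen with earlier results of these data known. Symbols are those of the deposited table; probe sequences and coordinates were not used here. A few results that the naming rule covers are not reported here.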

Additional observations from a re-analysis of the deposited data

Results flagged for a closer look

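Of 72 groups of 5 tumors (members, ratios and summed marker levels in each stage), 5 (6.94%) had 1 tumor far from the others, where chance gives about 5%, or 1 in 20. The measure is the gap from that tumor to its nearest neighbor divided by the range of the group, with a critical value of 0.71. All 5 were in the late group, and the causes were not tested.

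IKBKB in late CCH reached 0.900, because late 3 measured 934 normalized counts and the other 4 lay between 592 and 626. The log2 ratio of NFKBIA to RELB in late CCH reached 0.727, because late 5 stood at 3.86 and the others between 3.15 and 3.34. The summed B cell markers in late CCH reached 0.744, with 11354 in late 3 against 2268 to 4594. The summed neutrophil markers in late CCH reached 0.860, with 35522 in late 2 against 409 to 5329. The summed endothelial markers in late CCH reached 0.802, with 1197 in late 5 against 1965 to 2155.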

How the results depend on the processing

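NFKBIA was lower in early CCH under all 24 alternatives, past the BH threshold in each, and called in 18. It was not called under geometric mean (−0.91), 75th percentile (−0.96) or quantile scaling (−0.95), with DV200 as a covariate (−1.25), among males alone (−1.31) or with the replicate block (−1.30). Without 1 tumor it ranged from −1.39 to −1.19. Members past the BY and 2-fold thresholds, 2 on the deposited scale, numbered 1 under the median of ratios and 0 under geometric mean, 75th percentile and quantile scaling, DV200, males alone and the replicate block, and 2 to 3 without 1 tumor. Members past the BH threshold, 4 on the deposited scale, numbered 1 with DV200 and 2 among males alone. Panel genes past the BY and 2-fold thresholds numbered 85, but 0 with DV200 (45 past BH, 197 at an unadjusted p under 0.05), 0 among males alone (135 and 277), 1 with the replicate block, 188 with BH in place of BY, and 39 (without late 1) to 98 (without early 3) without 1 tumor. The cause was not tested, apart from the fewer tumors among males.

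NFKB1 changed sign under geometric mean (0.34), median of ratios (0.16), 75th percentile (0.28) and quantile scaling (0.30) and with DV200 (0.18), and ranged from −0.12 to 0.030 without 1 tumor. REL changed sign under geometric mean (0.14), 75th percentile (0.087) and quantile scaling (0.16) and with DV200 (0.026), and IKBKG among males alone (−0.040). The ratio of IKBKB to IKBKG changed sign under quantile scaling (−0.15) and ranged from −0.092 to 0.16 without 1 tumor, and that of RELB to NFKB2 from −0.13 to 0.12.

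Replicate numbers are shared between stages but not the dogs, and deviations of same-numbered tumors correlated between −0.20 and 0.16, with 1 of 5 early tumors closest to its own number. With the number as a block, NFKBIA had a BH adjusted p of 0.0122 and members past the BH threshold numbered 3. The counting SD of a member value was at most 11.2%, and for RELA in early CCH it was up to 5.40% beside a coefficient of variation of 6.56% between tumors.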

Other observations

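The genes nearest to the other members by the same correlation over 10 tumors are named here after their values were seen and given without a test, and CD6 and TAP1 are also among the 10 nearest to NFKBIA. NFKB2 lay closest to CD6 (r = 0.99, 0.93 after centering each stage), the peptide transporter TAP1 (0.99 and 0.91) and the immunoproteasome subunit PSMB10 (0.98 and 0.86). RELB lay closest to the T cell adaptor TRAT1 (0.96 and 0.90), IL32 (0.94 and 0.85) and the immunoglobulin heavy chain IGHM (0.94 and 0.82). NFKB1 lay closest to TOX, a transcription factor of T cell development (0.94 and 0.94), and IKBKB to TNKS (0.91 and 0.92). RELA, whose spread within stages was small, lay closest to NOTCH1, with 0.94 that fell to 0.44 after centering.

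Marker lists not described above varied widely within stages. None of 5 neutrophil and 5 keratinocyte markers passed the BH threshold in limma's test (0 at an unadjusted p under 0.05) on the deposited scale, while 2 of 4 endothelial (1 under geometric mean and quantile scaling) and 1 of 5 fibroblast markers were higher in late CCH (27.3% of all tested genes). Higher in early CCH past that threshold were 1 keratinocyte and 1 neutrophil marker under geometric mean and under 75th percentile scaling, and 2 keratinocyte markers under quantile scaling. The neutrophil sum was 1272 to 37793 in early and 409 to 35522 in late tumors, and the keratinocyte sum was 910 to 6162 and 826 to 4045.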
